A study of Bos taurus with 8 samples.

Results

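Animal cells build cholesterol from acetyl-CoA. In the mevalonate branch HMGCS1 acts on the way to mevalonate, which MVK, PMVK, MVD, IDI1 and FDPS turn into farnesyl diphosphate. FDFT1, squalene synthase, then joins farnesyl units into squalene, the first step that leads to sterols alone. SQLE and LSS close squalene into lanosterol, and later enzymes such as CYP51A1, SC5D and DHCR7 finish cholesterol. When membrane sterol is low, SCAP carries the transcription factor SREBF2 to the Golgi, where the proteases encoded by MBTPS1 and MBTPS2 release it to switch on genes of the pathway, and INSIG1 holds it back when sterol is plentiful. Muscle needs sterols for its membranes, and the same isoprenoid units serve protein prenylation, dolichol and ubiquinone.

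The sterol synthesis genes described here were FDFT1, HMGCS1, SQLE, LSS, IDI1, MVD, SREBF2 and INSIG1, 8 genes in all. They were selected on 1 measured value of these data, the low FDFT1 ratio of Hereford over Limousin, and the question was whether the rest of the pathway had low ratios with it. Values of these genes in Hereford against Limousin, and in any comparison that contains Hereford, are therefore a description with no test. Holstein-Friesian ratios were not named in that rule and were tested, but they share the 4 Limousin bulls with the Hereford ratios, and earlier results of these data were known when the genes were chosen. A gene was read from probes whose RefSeq transcript belongs to it, by the brightest probe above background in at least 4 of 16 channel readings. Of the 8 genes, 4 had such a probe, FDFT1, SQLE, MVD and INSIG1, each with 1 probe printed at 2 spots. All 4 were above background in 16 of 16 readings, so the threshold decided none of them. No value is given for HMGCS1, LSS, IDI1 and SREBF2, for which no probe was matched, and their RNA was not measured here. The 4 measured genes stand among 6642 genes and 17061 probes kept in the series.

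The study compared muscle of 2 cattle breeds known for marbled beef, Hereford and Holstein-Friesian, with muscle of Limousin, a lean breed. Total RNA came from the semitendinosus, a hind limb muscle, of 12 bulls aged 15 months, 4 of each breed. Hereford bulls were labelled with Cy5 against Limousin bulls in Cy3 on 4 arrays of 1 slide. Holstein-Friesian bulls were labelled with Cy3 against the same 4 Limousin bulls in Cy5 on 4 arrays of another slide. Breed, dye and slide thus cannot be told apart in a direct comparison of Hereford with Holstein-Friesian, and both comparisons share the Limousin bulls. No treatment is given in the labels, and the feeding of the bulls is not given in the sources used here.

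Signal differed between the channels. The median net intensity of Hereford channels was 97.25 to 139.75 and that of Holstein-Friesian channels 30.5 to 46.75, while Limousin channels had 97 to 117.5 in Cy5 and 63.5 to 88 in Cy3. Across probes, any pair of Hereford arrays had a correlation of 0.0611 to 0.531, and any Holstein-Friesian pair one of 0.403 to 0.595. Of 10 markers of skeletal muscle fibres 8 were measured, all above background in every reading. Tissue RNA is read in bulk, so fewer cells of a type and less RNA per cell cannot be told apart. Precision is limited by the number of arrays.

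FDFT1 had the lowest ratio of the measured genes. Its log2 ratio of Hereford over Limousin was -2.23, -1.26, -0.996 and -0.44 on the arrays with Limousin bulls 1 to 4, below 0 on all 4 arrays. Of all kept probes, 27.7% had the same direction on the 4 Hereford arrays. The mean was -1.23 (SD 0.75, n = 4 arrays), or 2.35-fold lower in Hereford. Among 17061 probes, of which limma called 7.14% in Hereford, this mean ranked 39 from the lowest. It was -0.90 without replicate 1 and -1.49 without replicate 4, and -0.99 when arrays were centred on their median in place of loess.

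In Holstein-Friesian muscle FDFT1 did not share that low ratio. There its log2 ratio over Limousin was -0.16, 0.49, 0.81 and 0.83, with a mean of 0.49 (SD 0.46, n = 4 arrays). The array with Limousin bull 1 was the lowest in both breeds, and it alone lay below 0 in Holstein-Friesian. The fitted 95% interval ran from -0.13 to 1.12 log2, and the mean did not pass (limma adjusted p = 0.321). With median centring the mean was -0.16 (limma adjusted p = 0.644), where the median of all probes was itself -0.20. The direction in Holstein-Friesian therefore depended on the scaling.

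Levels of FDFT1 in single bulls show both comparisons at once. The normalised log2 intensity was 10.55, 10.66, 11.25 and 11.18 in the 4 Hereford bulls, a mean of 10.91 (SD 0.35). In Holstein-Friesian it was 12.38, 12.58, 13.23 and 12.62, a mean of 12.70 (SD 0.37). The Limousin bulls, averaged over their dyes, stood at 12.65, 12.01, 12.33 and 11.70, a mean of 12.17 (SD 0.41). All Hereford bulls lay below all bulls of both other breeds, whereas Holstein-Friesian and Limousin bulls overlapped. The share of all probes with levels set apart in this way was not counted. The order of means was Holstein-Friesian, Limousin, Hereford, and the first pair in it differed by less than the range of the Limousin bulls (0.95).

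Dye was checked on the Limousin bulls, which were read in both dyes on different slides. For FDFT1, Cy5 minus Cy3 in the same bull was -0.25, 0.17, 0.18 and 0.17 log2, a mean of 0.07 (SD 0.21). Both dyes put the Limousin bulls in the same order, bull 1 highest and bull 4 lowest. Set against the same-numbered Limousin bull in its own dye, the FDFT1 ratio was -1.98, -1.43, -1.17 and -0.61 in Hereford, a mean of -1.30. In Holstein-Friesian the same-dye ratio had a mean of 0.56 (limma adjusted p = 0.253). Reading each breed against Limousin in its own dye thus left the FDFT1 ratios of both about as they were. That reading compares different slides, so a slide effect stays in it. In Cy5 minus Cy3, bull 1 stood apart from bulls 2 to 4, and the reason was not tested.

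**Figure D1:**
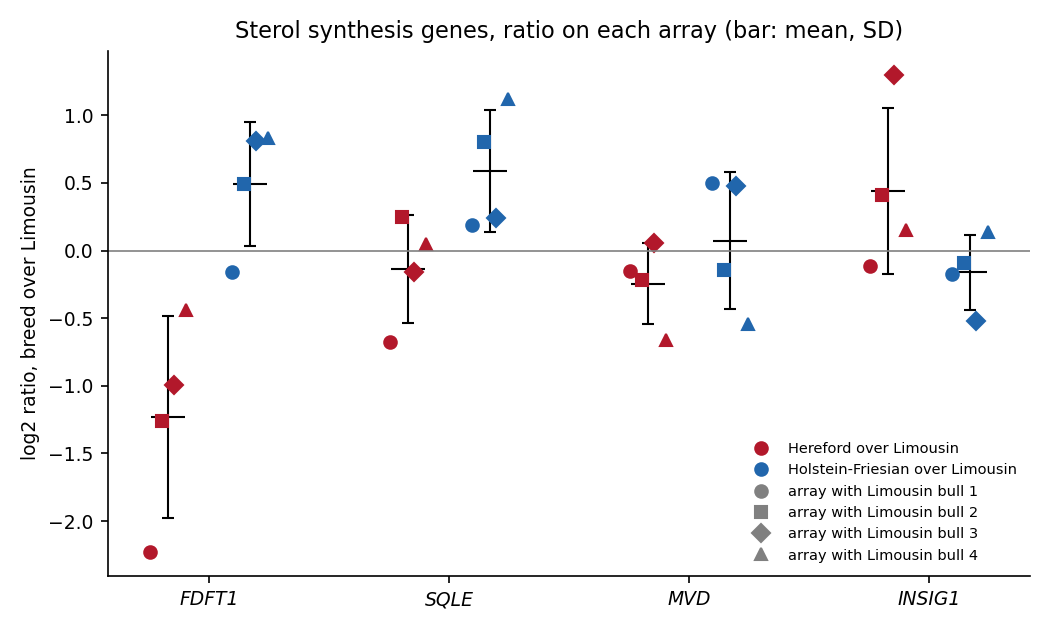
Log2 ratio of breed over Limousin on each array for the 4 measured genes, Hereford in red to the left of Holstein-Friesian in blue; marker shapes give the Limousin bull on the array, and black bars the mean and SD of 4 arrays. FDFT1 lies below 0 on all 4 Hereford arrays, while the Hereford ratios of SQLE, MVD and INSIG1 lie on both sides of 0.

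SQLE, squalene epoxidase, takes the product of FDFT1 and carries out the next step. Its Hereford log2 ratios were -0.68, 0.25, -0.16 and 0.05, a mean of -0.14 (SD 0.40, n = 4 arrays). They lay on both sides of 0, and without replicate 1 the mean was 0.05. Under median centring it was 0.07. SQLE thus had no ratio near that of FDFT1 in Hereford.

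Holstein-Friesian ratios of SQLE were 0.19, 0.80, 0.24 and 1.12, a mean of 0.59 (SD 0.45, n = 4 arrays), above 0 on all 4 arrays. Of all kept probes, 36.5% had the same direction on the 4 Holstein-Friesian arrays. In limma the interval was 0.15 to 1.02 log2 and the adjusted p 0.109, so the difference did not pass over all probes. The log2 level of SQLE was 7.33 to 7.92 in Hereford bulls, 8.03 to 8.66 in Holstein-Friesian bulls and 7.60 to 7.99 in Limousin bulls averaged over their dyes. On that average every Holstein-Friesian bull lay above every bull of the other breeds, and Hereford and Limousin bulls overlapped. The share of all probes with levels set apart in this way was not counted. In Cy3, the dye of Holstein-Friesian, Limousin bull 3 stood at 8.06, above Holstein-Friesian bull 1 at 8.03. Net intensities before scaling overlapped. They were 93.25 to 190.75 in Holstein-Friesian, 130.75 to 297 in Hereford and 140.25 to 285.5 in Limousin. The order of the breeds by level therefore depended on the scaling.

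MVD, mevalonate diphosphate decarboxylase, acts upstream of FDFT1 in the mevalonate branch. Its Hereford ratios were -0.15, -0.22, 0.05 and -0.66, a mean of -0.24 (SD 0.30, n = 4 arrays). Without replicate 4 the mean was -0.11, and with median centring it was -0.03. The array with Limousin bull 4 was the lowest for MVD, the array on which FDFT1 was least low.

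In Holstein-Friesian, MVD split evenly by array, with ratios of 0.50, -0.15, 0.48 and -0.54 and a mean of 0.07 (SD 0.51, n = 4 arrays). The limma interval was -0.35 to 0.50 log2 (adjusted p = 0.863). Its sign was not fixed, as it was -0.07 without replicate 1, -0.06 without replicate 3 and -0.47 with median centring. The log2 level was 9.08 to 9.61 in Hereford bulls, 9.18 to 10.11 in Holstein-Friesian bulls and 9.37 to 9.73 in Limousin bulls, so the breeds overlapped.

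INSIG1 encodes the protein that retains SCAP and SREBF2 in the endoplasmic reticulum, and its own gene is switched on by SREBF2. Its Hereford ratios were -0.11, 0.41, 1.30 and 0.15, a mean of 0.44 (SD 0.61, n = 4 arrays). The array with bull 3 set that mean, which was 0.15 without replicate 3. Hereford bull 3 had a log2 level of 9.13, while the other 3 Hereford bulls lay between 7.73 and 7.80, within the Limousin range of 7.41 to 7.97.

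Holstein-Friesian ratios of INSIG1 were -0.17, -0.09, -0.52 and 0.14, a mean of -0.16 (SD 0.27, n = 4 arrays). The limma interval was -0.64 to 0.32 log2 (adjusted p = 0.701). Levels of the Holstein-Friesian bulls, 7.33 to 7.92, overlapped those of Limousin. Among the 4 measured genes, limma called 0 in Holstein-Friesian, where 6.45% of all 17061 probes were called (3% higher and 3.45% lower). At an unadjusted p under 0.05 it was 1 of 4, SQLE, where 4011 of all 17061 probes passed. The count of called genes was 0 under each alternative run.

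**Figure D2:**
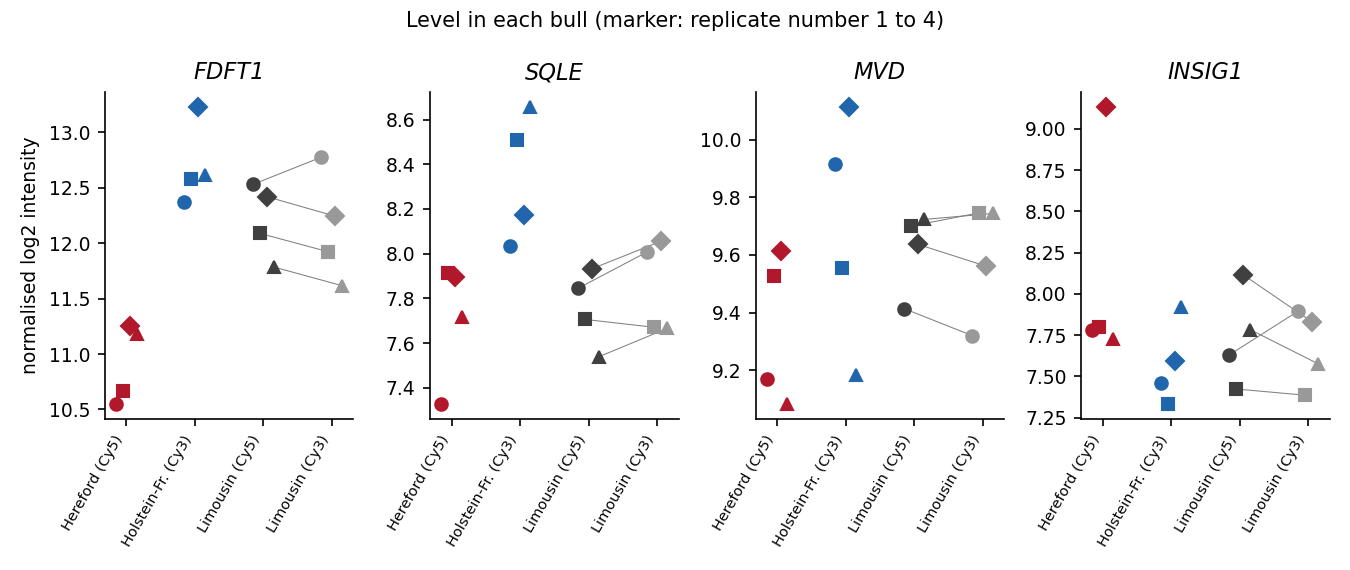
Normalised log2 intensity of FDFT1, SQLE, MVD and INSIG1 in each bull, for Hereford (Cy5), Holstein-Friesian (Cy3), and Limousin in Cy5 and in Cy3; shapes give the replicate number and grey lines join the readings of a Limousin bull. On this scale the Hereford bulls lie below all others for FDFT1 (10.55 to 11.25), and 1 Hereford bull stands apart for INSIG1 (9.13). FDFT1 was chosen for its low Hereford ratio, and its net intensities before scaling overlapped between breeds.

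Set side by side within Limousin bulls, the ratio of Hereford minus that of Holstein-Friesian was -2.07, -1.75, -1.81 and -1.27 log2 for FDFT1. The mean was -1.72 (SD 0.33, n = 4 bulls), which ranked 25 from the lowest of all probes. With median centring it was -0.83, where the median over all probes was 0.36. For SQLE the mean was -0.72 (SD 0.30), for MVD -0.32 and for INSIG1 0.60, which ranked 467, 2384 and 16204 from the lowest. Of the 16 enzymes of sterol synthesis measured, 6 lay above 0 and 10 below, where 7998 of 17061 probes lay below. Their median was -0.06, against 0.017 over all probes. With median centring 13 lay above 0 and 3 below. In this comparison a dye effect adds up, and these values are a description. Of all probes, 5.98% had 4 Hereford ratios that all lay below the 4 Holstein-Friesian ratios. FDFT1 was among these, with Hereford ratios of -2.23 to -0.44 and Holstein-Friesian ratios of -0.16 to 0.83. The mean over both breeds, in which a shared dye effect cancels, was -0.37 for FDFT1 (-0.09 without replicate 1), 0.23 for SQLE, -0.09 for MVD and 0.14 for INSIG1. In that mean limma called 0.598% of all probes.

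Of 17 further enzymes 13 were measured. Their Hereford means ran from -0.08 to 0.50 log2 beside -1.23 for FDFT1, with a median of 0.21, against 0.0075 over all probes. In limma 1 of 13, DHCR7, rose in Hereford and 0 fell, where 3.39% of all probes were called higher and 3.75% lower. At an unadjusted p under 0.05 there were 5 higher and 0 lower, where 4122 of all 17061 probes passed in either direction. Among the 5 were MSMO1, EBP, SC5D and DHCR7.

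Counted with FDFT1, SQLE and MVD, 16 enzymes were measured, of which 11 had a Hereford mean above 0 and 5 below. Of all 17061 probes, 8874 had a Hereford mean above 0. CYP51A1, counted here, lay near background, with net intensities of 4.75 to 22.5, and was not above background in every reading. FDFT1 was the lowest of the 16 on the Hereford arrays with bulls 1, 2 and 3. On the array with bull 4 it was second lowest, above MVD. The median of the 16 on these arrays was 0.16, 0.08, 0.23 and 0.0025 log2. By its mean, FDFT1 was the lowest of the enzymes measured under 13 of 13 settings, the main one included. The filters, the single-breed fit and the bull as block leave a Hereford mean unchanged, so those settings could not alter this rank. FDFT1 was chosen for its low Hereford ratio, so its rank is a description.

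In limma 1 of the 13 further enzymes rose in Holstein-Friesian, DHCR7, and 1 fell, TM7SF2, where 3% of all probes were called higher and 3.45% lower. At an unadjusted p under 0.05 there were 4 higher and 1 lower, where 4011 of 17061 probes passed in Holstein-Friesian. Of all 16 enzymes there, 13 had a mean above 0 and 3 below, with a median of 0.12, where 7871 of 17061 probes lay above 0. There FDFT1 ranked 5, 13, 16 and 15 from the lowest on the 4 arrays, and was thus near the top on 3 of them. With median centring the Holstein-Friesian enzymes turned over, to 4 above 0 and 12 below with a median of -0.36, and the Hereford median was 0.33. The direction of the pathway as a whole was therefore not fixed in Holstein-Friesian.

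**Figure D3:**
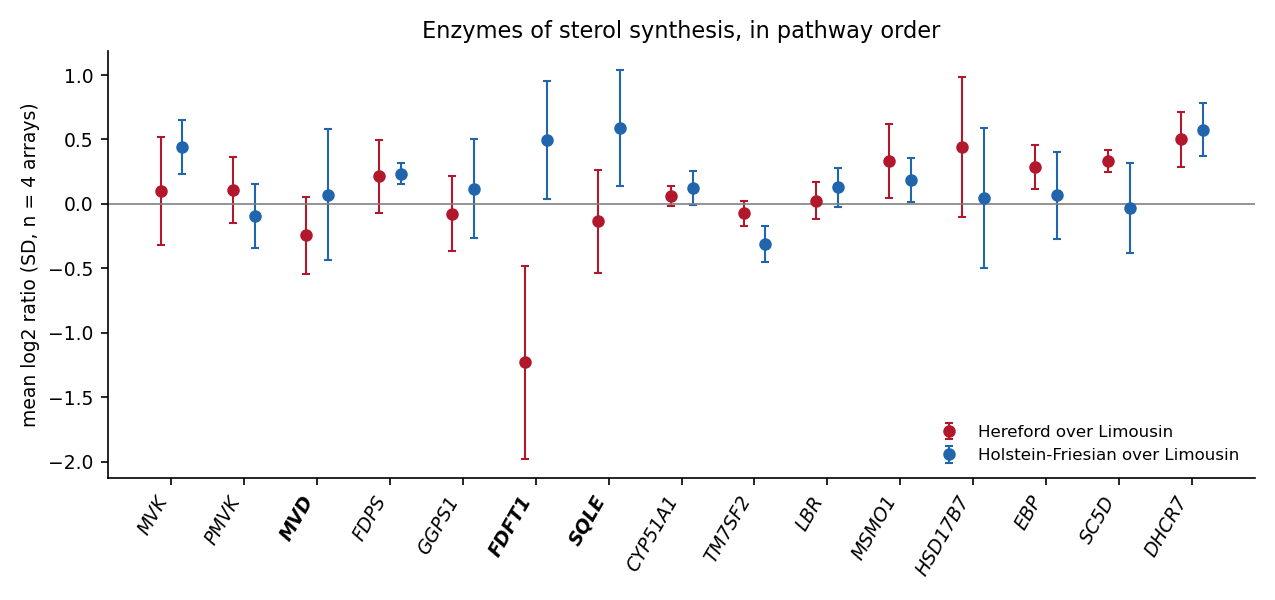
Mean log2 ratio over Limousin (SD, n = 4 arrays) of 15 measured enzymes in pathway order, from MVK to DHCR7, with GGPS1 on the side branch to geranylgeranyl diphosphate; Hereford is red and to the left of Holstein-Friesian in blue, and genes named in bold are FDFT1, SQLE and MVD. FDFT1 in Hereford, at -1.23, lies below every other mean, and the enzymes outside the 8 chosen genes lie between -0.08 and 0.50 in Hereford. CYP51A1 lay near background.

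DHCR7, which makes cholesterol from its last precursor, rose in both breeds. Its ratios were 0.35, 0.81, 0.38 and 0.46 log2 in Hereford, a mean of 0.50 (SD 0.21, n = 4, limma adjusted p = 0.0274). In Holstein-Friesian they were 0.72, 0.72, 0.57 and 0.29, a mean of 0.58 (SD 0.20, n = 4, limma adjusted p = 0.0179). All 8 ratios lay above 0, but both breeds were set against the same 4 Limousin bulls, so the breeds are not independent here. In the mean of both breeds, with 1 value per Limousin bull, DHCR7 stood at 0.54. Limma called 0 of the 13 further enzymes in that mean, where 0.598% of all probes were called. The call ended in Hereford without replicate 2, 3 or 4 (limma adjusted p = 0.121, 0.0813 and 0.102), with processed signals (0.0596), the deposited ratios (0.0588), median centring (0.0578) and the Hereford arrays alone (0.0968). In Holstein-Friesian it ended without any 1 of the 4 replicates (0.0598 to 0.0866). With median centring the Holstein-Friesian mean was 0.09 (0.647).

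MVK, mevalonate kinase of the same branch as MVD, stood at 0.10 in Hereford and 0.44 in Holstein-Friesian (limma adjusted p = 0.759 and 0.125). It passed in neither breed.

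TM7SF2, a sterol reductase of the steps after lanosterol, fell in Holstein-Friesian by 0.31 log2 (SD 0.14, n = 4, limma adjusted p = 0.038). Its 4 ratios were -0.19, -0.34, -0.21 and -0.49, and the Hereford mean was -0.07. Read in the same dye TM7SF2 stood at -0.13, -0.57, -0.34 and -0.41 in Hereford, a mean of -0.36 that was below 0 on all 4 arrays (limma adjusted p = 0.0602), and at a mean of -0.02 in Holstein-Friesian (0.901). The Holstein-Friesian call ended without any 1 replicate (0.0684 to 0.184), with processed signals (0.0736), the deposited ratios (0.0734), readings all above background (0.0579) and that breed's arrays alone (0.0766).

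Genes that sense sterol and release SREBF2 were measured for 8 of 14. Limma called 0 of 8 in Hereford, where 7.14% of all probes were called, with a median of -0.05 log2, or 0.19 with median centring. At an unadjusted p under 0.05 there were 3 of 8 in Hereford, where 4122 of 17061 probes passed. In Holstein-Friesian 2 rose and 1 fell, where 3% of all probes were called higher and 3.45% lower, with a median of 0.05, or -0.47 with median centring. NFYA, a subunit of the factor NF-Y that works beside SREBF2 at promoters, rose by 0.69 (SD 0.28, n = 4, limma adjusted p = 0.0219). Its ratios were 0.75, 0.45, 1.07 and 0.49 in Holstein-Friesian, and its mean in Hereford was 0.32 (0.174).

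MBTPS2, the second protease that frees SREBF2, fell in Holstein-Friesian. Its ratios were -0.54, -0.39, -0.63 and -0.43, a mean of -0.50 (SD 0.11, n = 4, limma adjusted p = 0.0104). In Hereford it stood at -0.28, below 0 on all 4 arrays, with a limma adjusted p of 0.0526. In the same dye the Hereford mean was -0.35 and passed (limma adjusted p = 0.0448), as it did with no filter (0.047). The NFYA call ended with median centring (0.178) and without replicate 1, 2 or 4 (limma adjusted p = 0.0597, 0.0866 and 0.0939), and that of MBTPS2 without replicate 2, 3 or 4 (0.0681, 0.0552 and 0.051).

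MBTPS1, the first protease, stood at 0.43 in Holstein-Friesian (SD 0.24, n = 4, limma adjusted p = 0.0422) and at -0.24 in Hereford (0.178). The same probe differed between dyes within the Limousin bulls, by -0.37 log2 for Cy5 minus Cy3 (limma adjusted p = 0.0395). In the same dye its ratio was 0.06 in Holstein-Friesian and 0.12 in Hereford. The call ended with the bull as a replicate block (limma adjusted p = 0.0634), with processed signals (0.0667), the deposited ratios (0.0666) and that breed's arrays alone (0.0811), and without replicate 2, 3 or 4 (0.209, 0.167 and 0.199). Without replicate 1 the Hereford mean of -0.33 passed (0.0383). RNF145, a ubiquitin ligase that acts on sterol sensing, stood at 0.31 in Hereford and 0.24 in Holstein-Friesian, and did not pass in either breed (limma adjusted p = 0.249 and 0.371).

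Uptake and transport genes were measured for 5 of 10. Limma called 0 of 5 in Hereford and 1 in Holstein-Friesian, where 7.14% and 6.45% of all probes were called. At an unadjusted p under 0.05 there was 1 of 5 in Hereford, VLDLR, where 4122 of 17061 probes passed. The medians were -0.07 in Hereford and -0.02 log2 in Holstein-Friesian, or 0.04 and 0.09 with median centring. VLDLR, the receptor for very low density lipoprotein, fell in Holstein-Friesian. Its ratios there were -0.78, -0.99, -0.21 and -1.35, a mean of -0.83 (SD 0.48, n = 4, limma adjusted p = 0.0412). In Hereford it stood at -0.53, below 0 on all 4 arrays (limma adjusted p = 0.134). The VLDLR call ended with the bull as a replicate block (limma adjusted p = 0.0555), with no filter (0.0532), with that breed's arrays alone (0.0751) and without any 1 replicate (0.0562 to 0.196).

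NPC2, which moves cholesterol out of lysosomes, stood at -0.07 in Hereford and 0.65 in Holstein-Friesian (limma adjusted p = 0.863 and 0.0618). It passed in neither breed.

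Export, esterification and oxysterol genes were measured for 4 of 10, with medians of -0.21 in Hereford and 0.22 in Holstein-Friesian, or 0.02 and -0.35 with median centring. In Hereford 1 of 4 fell, where 3.75% of all probes were called lower, and in Holstein-Friesian 1 of 4 rose, where 3% were called higher. CH25H, which makes the oxysterol that restrains SREBF2, rose in Holstein-Friesian. The ratios there were 1.34, 1.26, 1.96 and 1.30 log2, a mean of 1.46 (SD 0.33, n = 4, limma adjusted p = 0.00288), or 2.76-fold. It kept the call without each replicate in turn (0.0034 to 0.0349). Hereford ratios were 0.32, 0.29, 0.55 and 0.11, a mean of 0.32 (0.162). The breeds did not overlap, and 5.98% of all probes had every Hereford ratio below every Holstein-Friesian ratio. The difference of -1.14 between the breeds passed (limma adjusted p = 0.024), where 2.71% of all probes were called (1.56% higher and 1.15% lower). That difference lost its call without replicate 1, 2 or 4 (0.0523, 0.142 and 0.175).

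CH25H is also made by macrophages. Of 5 macrophage markers 3 were measured, all above background. Their median log2 ratio was -0.39, -0.30, -0.05 and -0.34 on the Hereford arrays and -0.12, 0.18, 0.46 and 0.89 on the Holstein-Friesian arrays. Their summed log2 level was 8.57 to 8.86 in Hereford bulls, 8.82 to 9.93 in Holstein-Friesian bulls and 8.60 to 9.22 in Limousin bulls. Within the Limousin bulls, Cy5 minus Cy3 was -0.27 for the macrophage marker CD68, -0.11 for CD14 and -0.24 for AIF1. The part of macrophages in the CH25H result was not tested.

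CYP27A1, which makes another oxysterol in mitochondria, fell in Hereford. Its ratios were -0.76, -0.97, -0.36 and -0.60, a mean of -0.67 (SD 0.26, n = 4, limma adjusted p = 0.018), and its mean in Holstein-Friesian was 0.18 (0.402). The difference between the breeds was -0.85 (limma adjusted p = 0.041). In the same dye the Hereford mean was -0.43 and did not pass (limma adjusted p = 0.143). The Hereford call ended with median centring (0.157), with the Hereford arrays alone (0.0749) and without replicate 2 or 4 (0.0982 and 0.102), and the difference without replicate 2, 3 or 4 (0.204, 0.104 and 0.235). MYLIP, a ubiquitin ligase that acts on lipoprotein receptors, stood at -0.17 in Hereford and -0.12 in Holstein-Friesian (0.598 and 0.704).

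Other uses of isoprenoids draw on the farnesyl diphosphate that FDFT1 consumes, and 6 of 10 such genes were measured. In Hereford 1 of 6 rose and 1 fell, where 3.39% of all probes were called higher and 3.75% lower. In Holstein-Friesian 1 of 6 fell, where 3.45% were called lower. FNTB, a subunit of the enzyme that farnesylates proteins, fell in both breeds. Its ratios were -1.71, -1.22, -0.54 and -0.56 in Hereford, a mean of -1.004 (SD 0.56, n = 4, limma adjusted p = 0.0256). In Holstein-Friesian they were -1.22, -0.81, -0.67 and -0.67, a mean of -0.84 (SD 0.26, n = 4, limma adjusted p = 0.0429). All 8 ratios lay below 0, again against the same 4 Limousin bulls in both breeds. In the mean of both breeds, with 1 value per Limousin bull, FNTB stood at -0.92. Limma called 0 of these 6 genes in that mean, where 0.598% of all probes were called. The Holstein-Friesian mean in the same dye was -0.60 and did not pass (limma adjusted p = 0.13). The Hereford call ended with median centring (0.0853) and the Hereford arrays alone (0.11), and the Holstein-Friesian call with no filter (0.055). Both calls ended without replicate 2 (0.145 in Hereford and 0.175 in Holstein-Friesian), 3 (0.0572 and 0.106) or 4 (0.0925 and 0.133).

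FNTA, the partner subunit of FNTB, stood at -0.09 in Hereford and 0.05 in Holstein-Friesian (limma adjusted p = 0.778 and 0.875). PGGT1B, a subunit of a geranylgeranyl transferase, rose in Hereford. Its ratios were 0.25, 0.43, 0.41 and 0.62, a mean of 0.43 (SD 0.15, n = 4, limma adjusted p = 0.0278), and it stood at 0.04 in Holstein-Friesian. In the same dye the Hereford mean was 0.22 (0.183), and the call ended with the Hereford arrays alone (0.0936) and without replicate 2, 3 or 4 (0.0962, 0.092 and 0.137). The medians of this group were 0.02 in Hereford and 0.05 in Holstein-Friesian, or 0.24 and -0.40 with median centring.

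**Figure D4:**
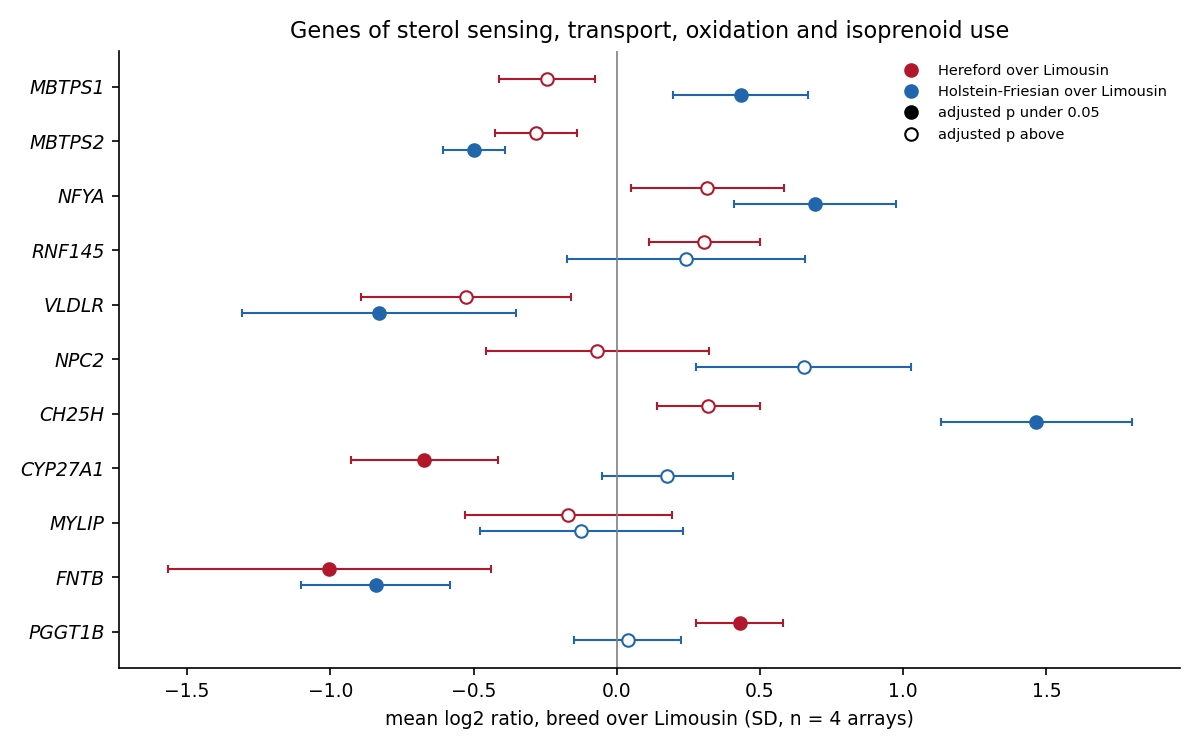
Mean log2 ratio over Limousin (SD, n = 4 arrays) of genes of sterol sensing, transport, oxidation and isoprenoid use, with Hereford in red above Holstein-Friesian in blue; filled points have a limma adjusted p under 0.05. CH25H at 1.46 in Holstein-Friesian lies farthest above 0, and FNTB lies below 0 in both breeds.

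Genes whose 8 ratios were most like those of FDFT1 lay outside the pathway. Likeness was the root mean square difference in log2 over 8 arrays, computed for 6641 genes, and it is a description of these arrays. The closest were DUSP10, a phosphatase of stress kinases (0.487), VPS33A of lysosomal fusion (0.508), SLC19A3, a thiamine carrier (0.518), the transcription repressor HBP1 (0.54) and the chemokine CCL24 (0.551). Their Hereford means ran from -1.22 in DUSP10 to -0.64 in HBP1, and their Holstein-Friesian means from 0.12 in SLC19A3 to 0.73 in CCL24. All 5 thus shared a low Hereford ratio and a mean above 0 in Holstein-Friesian with FDFT1, as the measure of likeness favours.

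Cell type markers were read beside FDFT1. The 3 macrophage markers measured had means below 0 in Hereford and above 0 in Holstein-Friesian, and limma called 0 of 3 in either breed. At an unadjusted p under 0.05 it was 1 in each, CD68 in Hereford and CD14 in Holstein-Friesian, where 4122 and 4011 of 17061 probes were. In the same dye CD68, CD14 and AIF1 stood at -0.08, -0.15 and -0.04 in Hereford and at -0.10, 0.38 and 0.38 in Holstein-Friesian. CD68 thus lay below 0 in both breeds there. Medians of the macrophage markers per array are given above with CH25H. Of the 8 fibre markers measured, all had a mean above 0 in Hereford, with a median of 0.34 and 1 called, the slow myosin MYH7 (1.18, limma adjusted p = 0.047). In Holstein-Friesian 5 of 8 lay above 0, with a median of 0.21 and 1 called lower, the myoglobin gene MB (-1.02, limma adjusted p = 0.0167). Within the Limousin bulls the fibre markers read higher in Cy5, the dye of Hereford, by 0.09 (MYH2) to 0.52 (MYH1) log2, except MYBPC1 (-0.07). In the same dye CKM (-0.18), DES (-0.15), MB (-0.06) and MYH1 (-0.02) lay below 0 in Hereford, and the others above. MYH7 there was 0.73 (limma adjusted p = 0.037). The same-dye mean of MB in Holstein-Friesian was -0.56 (limma adjusted p = 0.115).

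Adipocyte markers, 7 of 8 measured and 5 of them above background everywhere, had median ratios of 0.08, -0.31, 0.36 and -0.32 on the Hereford arrays and 0.19, -0.23, 0.23 and -0.35 on the Holstein-Friesian arrays. These lay on both sides of 0 in each breed. By mean, 6 of 7 lay below 0 in Holstein-Friesian, with a median of -0.26, and 2 of 7 in Hereford. Limma called 0 of 7 in Hereford and 1 in Holstein-Friesian, CIDEA, which was lower. Fibroblast markers, 6 of 6 measured, had 0.25, -0.51, -0.19 and 0.04 in Hereford and -0.19, -0.71, -1.59 and -1.01 in Holstein-Friesian. Limma called 0 of 6 in Hereford and 1 of 6 lower in Holstein-Friesian. On the Hereford array with Limousin bull 1, where FDFT1 was lowest (-2.23), both marker medians were above 0. The adipocyte genes went far apart there: FABP4 had a ratio of 2.97 and CIDEC of 2.92, while CIDEA stood at -0.50 and LPL at -0.48. On the other Hereford arrays FABP4 had -1.34, 1.56 and -1.22 and CIDEC -0.92, 0.49 and -0.56, all lower than on that array. Among the remaining markers limma called 1 of 4 of smooth muscle higher in Hereford, CNN1, and 1 of 3 of lymphocytes higher in Holstein-Friesian, CD3E. Of all probes, 3.39% were called higher in Hereford, and 3% higher and 3.45% lower in Holstein-Friesian. In the same dye CNN1 stood at 1.21 (limma adjusted p = 0.0304), CD3E at 0.38 (0.102) and CIDEA at -0.49 (0.0786). The part of cell makeup in the FDFT1 ratio was not tested.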

How the data were processed

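Per the labels, 8 two-colour Agilent arrays held muscle RNA of 12 bulls. Intensity values were deposited as median spot and background brightness per the file headers, from Agilent Feature Extraction 10.7.3.1 per the submitters' processing notes. The deposited log10 values are Cy5 over Cy3 and matched the scanner's own log ratio within 1e-06 for 44407 of 44407 spots per array.

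In R 4.3.3 with limma 3.58.1, background was corrected by normexp (offset 50) and arrays normalised by loess (span 0.3, controls with no weight). Ratios were turned to log2 breed over Limousin, and outlier spots (6 to 29 an array) left out. Other packages were statmod 1.5.0, jsonlite 2.0.0 and matplotlib 3.10.9, with files read through data.table (version 1.17.8). Spots of a probe were averaged over 21475 probes, and 17061 were kept. RefSeq accessions were named through assembly ARS-UCD2.0, giving 8215 probes a symbol. The array annotation follows Btau_3.1, so no coordinates are given. Levels per channel were scaled with Aquantile after loess.

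Breed means were fitted with lmFit and eBayes over all 8 arrays, two-sided, with Benjamini-Hochberg adjustment over 17061 probes and a call at an adjusted p under 0.05. SD values are over 4 arrays or bulls. The same-dye reading sets a breed against the same-numbered Limousin bull in that dye on the other slide. Per the labels each Limousin bull has a single number on both slides, so the numbers pair the arrays. Deviations of same-numbered arrays correlated at 0.415, 0.273, 0.5 and 0.0987. The script was tested on simulated data. The 8 genes and the lists were chosen with earlier results of these data known. Named besides the 8 genes were, of each list, the genes called in a breed and the 3 with the largest mean over 8 arrays, and the 5 genes most like FDFT1. Some genes that this rule names are not reported here. FNTA, MSMO1, EBP and SC5D were named after their values were seen. Sequences were not used here. Alternatives were processed signals, median centring, the deposited ratios, filters, single-breed fits, the bull as block, the same dye and each replicate left out.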

Additional observations from a re-analysis of the deposited data

Results flagged for a closer look

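Among the 48 groups of 4 values examined, 4 held a value far from its 3 neighbours by Dixon's criterion. Chance gives about 1 in 20. Hereford bull 3 had an INSIG1 log2 level of 9.13, against 7.73 to 7.80 in the other Hereford bulls. MVK had a Holstein-Friesian ratio of 0.755 on the array with bull 3, against 0.313 to 0.354 on the others. MBTPS1 had a Hereford ratio of 0.00389 on the array with bull 1, against -0.356 to -0.309. CH25H had a Holstein-Friesian ratio of 1.96 on the array with bull 3, against 1.26 to 1.34.

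For 3 genes the breeds differed by limma's test of Hereford minus Holstein-Friesian, in which a dye effect adds up. The difference was -0.68 log2 for MBTPS1 (adjusted p = 0.0484), -1.14 for CH25H (0.024) and -0.85 for CYP27A1 (0.041). Within the Limousin bulls, Cy5 minus Cy3 was -0.37 for the MBTPS1 probe, 0.05 for CH25H and -0.25 for CYP27A1.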

How the results depend on the processing

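The set held the counts, the values of the 4 measured genes in each breed, and FDFT1 in the difference and the mean. Of these, 163 kept their direction and side of the threshold or moved little under an alternative, 53 moved and 4 reversed. Outside Holstein-Friesian, only a value called in the main fit could count as reversed. The sign changes of SQLE in Hereford, with median centring and without replicate 1, therefore counted as moving little. FDFT1 in Hereford stayed between -1.49 and -0.90 log2 in every setting run. With processed signals limma called 2157 probes in Holstein-Friesian, 974 for the difference and 444 for the mean of both breeds, and with the deposited ratios 2129, 979 and 438. Other sterol enzymes called higher in Hereford were 0 with processed signals, the deposited ratios, median centring and the single breed, and 0 to 2 without each replicate. Those called lower in Holstein-Friesian were 0 with processed signals, the deposited ratios, readings all above background, the single breed and the same dye, 4 with median centring and 0 to 0 without each replicate. Those called higher there were 3 in the same dye and 0 to 0 without each replicate.

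With median centring limma called 315 probes in Hereford (87% higher, against 47.5% after loess), 6678 in Holstein-Friesian (29% higher, against 46.5%), 6219 for the difference (78.1%, against 57.5%) and 950 for the mean (23.1%, against 53.9%). Holstein-Friesian calls were 37.9% higher with processed signals. Median centring moved the median of all probes to 0.10 in Hereford, -0.20 in Holstein-Friesian and 0.36 for the difference. It reversed FDFT1 (-0.16), MVD (-0.47), MVK (-0.17), MBTPS1 (-0.15), RNF145 (-0.23), CYP27A1 (-0.34), and PGGT1B (-0.076) in Holstein-Friesian, TM7SF2 (0.14), NPC2 (0.15), MYLIP (0.045) and SQLE (0.068) in Hereford, and MBTPS1 in the difference (0.13). FDFT1 in the difference was -0.83. The cause was not tested.

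Readings all above background gave 371 probes for the mean, and no filter 42. From Hereford arrays alone limma called 27 probes, and in the same dye 683. There MBTPS1 (0.12) and NPC2 (0.15) in Hereford and CYP27A1 (-0.068) and MYLIP (0.050) in Holstein-Friesian reversed. The replicate block, which is paired by bull, gave 1714 probes for the difference and 910 for the mean, and among named genes ended only the Holstein-Friesian calls of MBTPS1 (0.0634) and VLDLR (0.0555). Without each replicate in turn limma called 30 to 1055 probes in Hereford, 78 to 810 in Holstein-Friesian, 0 to 457 for the difference and 0 to 1 for the mean (2339 to 3340 at an unadjusted p under 0.05). In Hereford MVK then ran from -0.060 to 0.26 and NPC2 from -0.21 to 0.097, and in Holstein-Friesian MVD from -0.070 to 0.28 and PGGT1B from -0.053 to 0.089. None of the 4 measured genes has a second kept probe, so that alternative was not run. Dim Holstein-Friesian channels limit what low probes can show.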
